A study of Arabidopsis thaliana with 12 samples.

Results

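Pentatricopeptide repeat proteins are a large family of helical-repeat proteins of plants that bind RNA in mitochondria and chloroplasts. They are encoded in the nucleus, imported into the organelle, and there act on particular transcripts, in editing, splicing, end trimming, stabilisation or translation. The 3 members of the family described here are AT3G13150, AT1G31790 and CRR21 (AT5G55740). CRR21 is needed for the editing of the plastid transcript ndhD, which codes for part of the NADH dehydrogenase-like complex of chloroplasts. That complex carries electrons around photosystem I. No role in a named transcript is given here for AT3G13150 or AT1G31790.

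The members were taken as the probes of the array whose annotation names one of these genes and no other. Each gene had 1 such probe (numbers 2433, 1947 and 4503), so 3 of the 3439 probes, or of the 692 that name 1 gene, are described, and 0 other probes name any of them beside another gene. They were chosen by values measured on these same arrays, namely the differences between genotypes and the brightness of AT3G13150, so those values are given as a description and support nothing by themselves. Sequences of these genes were not used here, and coordinates served only to order genes along the chromosomes.

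Total RNA of Arabidopsis thaliana was read on 12 arrays, 6 from wild-type plants (WT) and 6 from the mutant mak3, both of the ecotype Columbia 0. The mutant lacks the normal function of a cytoplasmic N-acetyltransferase, an enzyme that acetylates other molecules, and the comparison asks which transcripts differ in its absence. The labels name no further agent, allele, tissue, age or growth condition, and the transcript of the mutated gene was not analysed here, so the genotype labels have no check of their own. Within a genotype, the array pairs 1-2, 3-4 and 5-6 were nearly repeat readings (r = 0.976 to 0.994 across probes, against 0.841 to 0.940 for other arrays of the genotype), so each pair was averaged and n = 3 for each genotype. Nothing says that these samples came from separate plants, so the spread between them may be technical.

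AT3G13150 was a bright probe and was dimmer in mak3 on every array. Its deposited intensity, on a scale where the mean of an array is near 1, was 2.84 and 3.08 on WT arrays 1 and 2, 3.16 and 3.29 on arrays 3 and 4, and 3.89 and 3.72 on arrays 5 and 6. In mak3 it was 2.28 and 2.47, 1.99 and 2.004, and 2.24 and 2.20 on the arrays of the same numbers. The lowest WT array thus lay above the highest mak3 array. The mean of the 3 samples was 3.33 ± 0.434 in WT and 2.20 ± 0.189 in mak3 (SD, n = 3).

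CRR21 was of middling brightness, and its intensity depended more on the array pair than on the genotype. The WT arrays read 1.16 and 1.12 in pair 1-2, 0.621 and 0.668 in pair 3-4, and 0.551 and 0.575 in pair 5-6. The mak3 arrays read 1.24 and 1.30, then 0.714 and 0.776, then 0.550 and 0.581. In both genotypes pair 1-2 was the highest, and the genotypes overlapped widely. The mean of the 3 samples was 0.781 ± 0.310 in WT and 0.860 ± 0.366 in mak3 (SD, n = 3).

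AT1G31790 stayed in a narrow range. Its WT arrays read 0.662 and 0.636, 0.546 and 0.536, and 0.588 and 0.613 in pairs 1-2, 3-4 and 5-6. Its mak3 arrays read 0.660 and 0.697, 0.755 and 0.727, and 0.553 and 0.583. As deposited, the mak3 arrays of pair 3-4 were the highest and the genotypes overlapped. The mean was 0.597 ± 0.0544 in WT and 0.662 ± 0.0877 in mak3 (SD, n = 3).

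The brightness of different probes depends on how each one binds its target, so the order of the 3 genes by intensity does not give the order of their transcript amounts. Within an array, the rank of a probe does not change under a scaling that keeps the order of the probes. AT3G13150 held ranks 78 to 119 from the brightest on the WT arrays and 155 to 201 on the mak3 arrays, and these ranges did not overlap. CRR21 went from rank 481 to 1924 over the WT arrays and from 430 to 1175 over the mak3 arrays. In pair 3-4 it ranked 1500 and 1351 in WT against 980 and 829 in mak3, and in pair 5-6 it ranked 1924 and 1848 against 1175 and 1103. AT1G31790 ranked 1447 to 1824 in WT and 871 to 1530 in mak3. In pair 1-2 its ranks crossed, with 1447 and 1539 in WT against 1530 and 1432 in mak3. AT3G13150 therefore lost places in mak3 in all 3 pairs, CRR21 gained places in all 3, and AT1G31790 gained them in pairs 3-4 and 5-6.

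**Figure D1:**
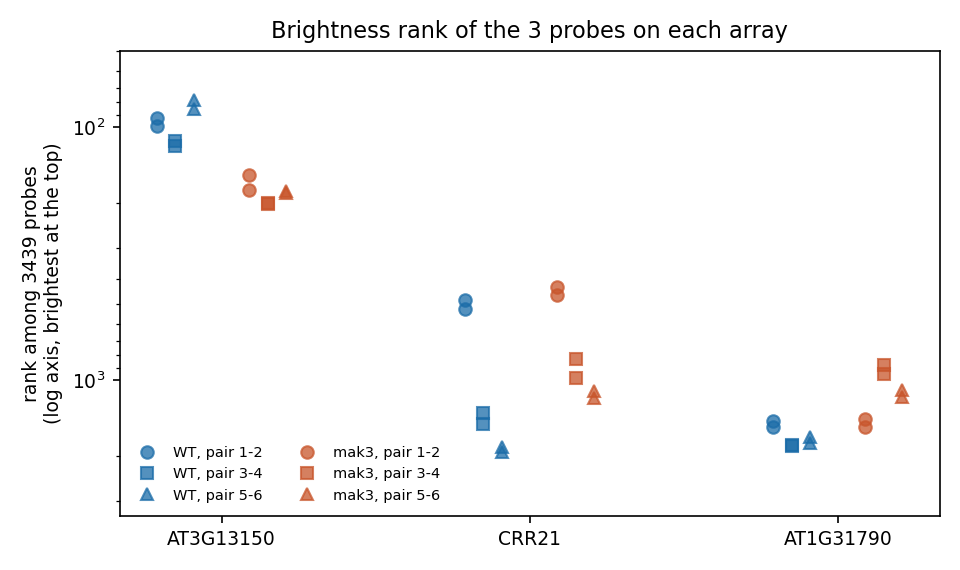
Rank of the 3 probes among the 3439 probes of each array, on a log axis with the brightest at the top, with 1 point for each array, colour for the genotype and shape for the array pair. The WT arrays of AT3G13150 lie at ranks 78 to 119 and the mak3 arrays at 155 to 201, while the points of CRR21 and of AT1G31790 overlap between genotypes.

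The medians of the arrays differed between genotypes in pairs 3-4 and 5-6, so the arrays were brought to a common distribution by quantile normalization, and log2 intensities were compared. On this scale AT3G13150 was at 1.84, 1.62 and 2.01 in the WT samples of pairs 1-2, 3-4 and 5-6 and at 1.21, 0.96 and 1.10 in the mak3 samples. The mak3 minus WT difference of AT3G13150 was -0.73 ± 0.13 (moderated SE of limma, n = 3 against 3), which is 0.602 times the WT intensity. The lowest WT sample stood 0.41 above the highest mak3 sample. The samples of each genotype spanned 0.39 in WT and 0.24 in mak3, and repeat readings of a sample were at most 0.17 apart. By pair the difference was -0.63, -0.65 and -0.91. Its SE was 0.08 in a fit that blocked on the pair number.

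CRR21 was at 0.13, -0.68 and -0.998 in the WT samples and at 0.23, -0.30 and -0.48 in the mak3 samples. Its mak3 minus WT difference was 0.33 ± 0.36 (SE, n = 3 against 3), smaller than the span of 1.13 between the WT samples alone. Within pairs it was 0.09, 0.38 and 0.52. A fit that blocked on the pair number gave it an SE of 0.11 instead, as WT and mak3 moved together from pair to pair.

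AT1G31790 was at -0.72, -0.94 and -0.89 in the WT samples and at -0.72, -0.30 and -0.47 in the mak3 samples. Its mak3 minus WT difference was 0.35 ± 0.14 (SE, n = 3 against 3). The genotypes were separated by 0.0084 at their nearest samples, both of pair 1-2, which is less than the largest gap between repeat readings, 0.07. By pair the difference was 0.0084, 0.64 and 0.42, so it was within the repeat readings in pair 1-2 and clear of the repeat readings in the other pairs. CRR21 and AT1G31790 thus had nearly the same mean difference but a different spread: that of CRR21 was shared by both genotypes of a pair, and that of AT1G31790 lay in the difference itself, with an SE of 0.16 with the block.

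**Figure D2:**
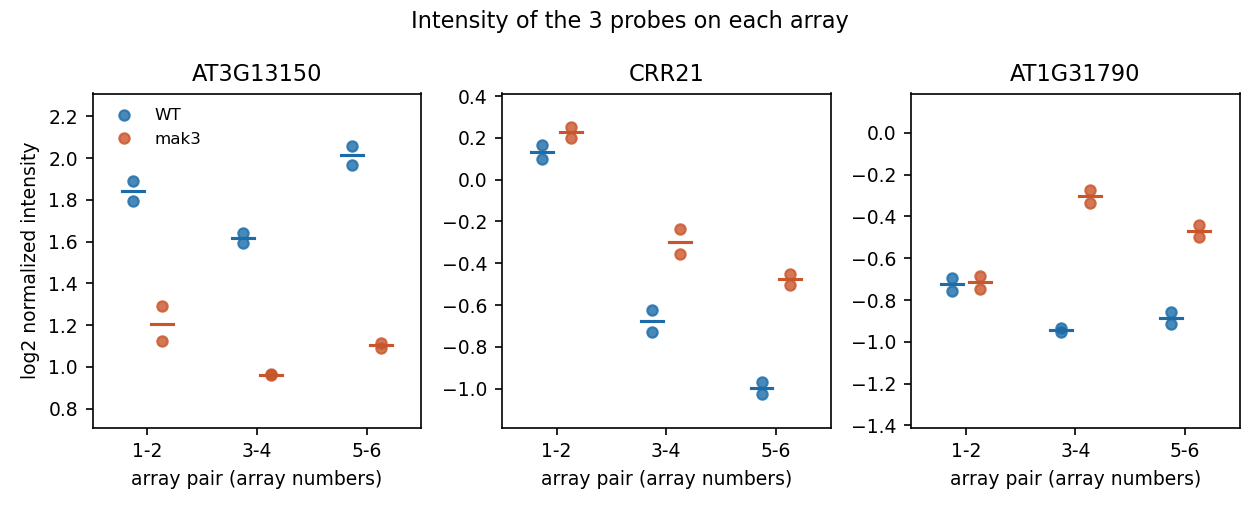
Log2 normalized intensity of AT3G13150, CRR21 and AT1G31790 by array pair, with 1 point for each array and a short line for the mean of a pair. AT3G13150 is lower in mak3 in each pair, CRR21 falls from pair 1-2 to pair 5-6 in both genotypes, and the genotypes of AT1G31790 coincide in pair 1-2.

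The contrast between AT3G13150 and the other members was in one direction in each pair. Its mak3 minus WT difference less that of CRR21 was -0.73, -1.03 and -1.43 in pairs 1-2, 3-4 and 5-6 (mean -1.06 ± 0.35, SD over 3 pairs). Less that of AT1G31790 it was -0.64, -1.29 and -1.32 (mean -1.09 ± 0.38, SD over 3 pairs). CRR21 minus AT1G31790 had no settled sign, with 0.09, -0.26 and 0.10 (mean -0.02 ± 0.21, SD over 3 pairs). Since AT3G13150 was chosen for its difference, these gaps are given without a test.

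With limma over all probes, 0 of the 3 members passed an adjusted p under 0.05, in a table where 0 of 3439 probes did (0.00%), and blocking on the pair number gave the same counts (0.00%). Without adjustment, p was under 0.05 for 135 probes (3.93%), AT3G13150 and AT1G31790 among them. That number was 462 with the block, and 465, 26 and 52 without pairs 1-2, 3-4 and 5-6. The limma p of AT1G31790, unadjusted, was 0.0475, but 0.111 with the block, 0.340 as deposited and 0.0751 with cyclic loess. That of AT3G13150 was 0.00286, 0.00335 with the block and 0.0626 with a common median. AT3G13150 was 1 of 140 probes with all mak3 samples below all WT samples (4.07%), and AT1G31790 was 1 of 110 with all mak3 samples above (3.20%). AT3G13150 was also among the 694 probes that were lower in mak3 in all 3 pairs (20.2%), and both CRR21 and AT1G31790 among the 561 that were higher in all 3 (16.3%). The rule that chose the members used this contrast, so nothing is read from these counts.

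The size of the difference of AT3G13150 depended on how the arrays were scaled. It was -0.59 with the values as deposited and -0.65 with cyclic loess, and -0.37 after common median scaling. By pair, common median scaling gave -0.36, -0.50 and -0.25, and the values as deposited gave -0.32, -0.69 and -0.78. Bright probes moved with this choice: the median difference of the 344 brightest probes was -0.07 after quantile normalization, -0.01 as deposited and 0.22 with a common median, where it reached 0.60 in pair 5-6. Set against those probes, AT3G13150 stood at -0.66, -0.58 and -0.58 in these scalings. The equal values as deposited and with a common median follow from the scaling, which shifts bright probes of an array alike. Set against the median of all probes, AT3G13150 stood at -0.73, -0.41 and -0.38.

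A common median multiplies all values of an array by the same factor. All 3 members therefore moved up by the same amount from the values as deposited. This brought AT3G13150 nearer to 0 and took CRR21 and AT1G31790 farther from it. As deposited, the median of all probes was -0.19, CRR21 was at 0.13 and AT1G31790 at 0.15, which is 0.31 and 0.33 relative to that median. Relative to the 344 brightest probes, CRR21 was at 0.40 after quantile normalization, 0.14 as deposited and 0.14 with a common median. AT1G31790 was at 0.43, 0.16 and 0.16 on the same terms. For both genes the values as deposited and with a common median are equal here because of that common factor. In pair 5-6, where the median of all probes was -0.44 as deposited, CRR21 was at 0.0059 and AT1G31790 at -0.08, so the sign of AT1G31790 in that pair turned. With a common median CRR21 and AT1G31790 were at 0.53 and 0.44 in that pair, and with cyclic loess at 0.43 and 0.42. As means over the 3 pairs they were at 0.35 and 0.37 with a common median, and at 0.30 and 0.36 with cyclic loess.

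**Figure D3:**
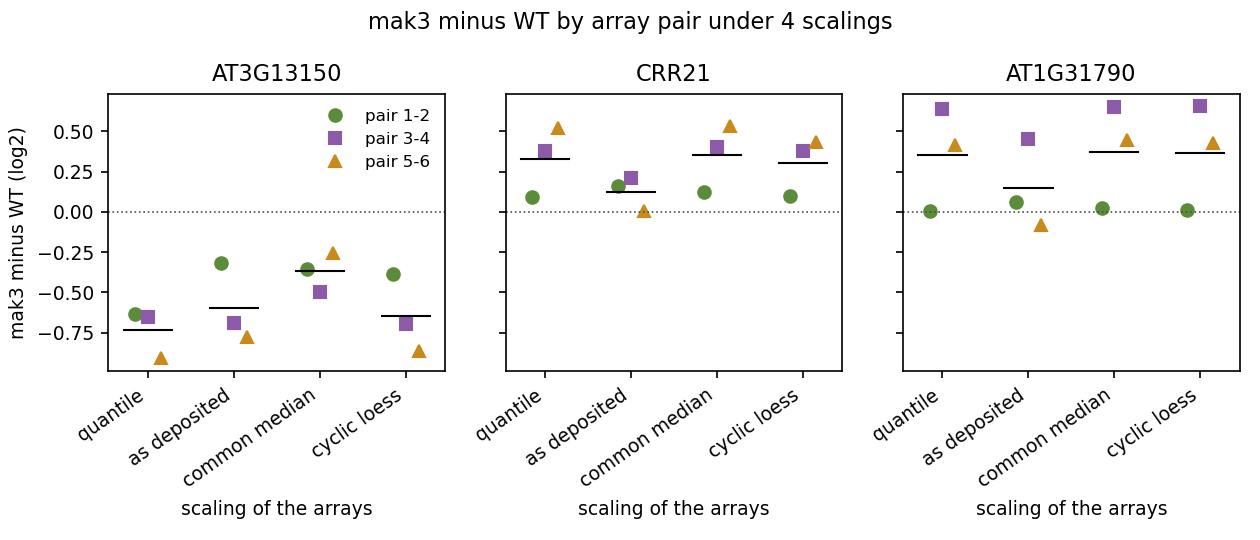
mak3 minus WT difference (log2) of each member by array pair under 4 scalings of the arrays, with a line for the mean of the 3 pairs. AT3G13150 is below 0 in all pairs and scalings, from -0.91 to -0.25, while AT1G31790 falls below 0 in pair 5-6 with the values as deposited.

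Probes with neighbouring numbers also differed between genotypes. The running median of 49 probes around AT3G13150 was 0.04, -0.23 and -0.20 in pairs 1-2, 3-4 and 5-6, against the gene's own -0.63, -0.65 and -0.91. Around CRR21 it was 0.00, 0.24 and 0.23, against its own 0.09, 0.38 and 0.52. Around AT1G31790 it was 0.02, 0.17 and 0.0019, against 0.0084, 0.64 and 0.42. With the running median taken off, AT3G13150 was at -0.60, CRR21 at 0.17 and AT1G31790 at 0.29. The part of probe position in the differences was not tested beyond these values.

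Likeness to a member was measured as Pearson's r over the 6 samples, which share their pairs and their normalization. It therefore carries the genotype difference that the members were chosen for, and also the differences between pairs. The samples of CRR21 spanned 1.13 in WT and 0.70 in mak3, wider than its mak3 minus WT difference of 0.33. Of 639 other probes that name 1 gene and were above the lower limit on every array, those most like AT3G13150 were AT5G01860 (r = 0.956), AT5G49590 (0.930) and AT4G39760 (0.904). The probes of AT5G01860 and AT4G39760 lie 5 and 13 numbers from that of AT3G13150. Their mak3 minus WT differences were -0.37 ± 0.12 and -0.40 ± 0.16 (SE, n = 3 against 3). That of AT5G49590, 1144 numbers away, was -0.29 ± 0.09.

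The probes most like CRR21 were AT1G01250 (r = 0.997), AT3G24190 (0.993) and SEH1H (0.993), whose probes lie 265, 1123 and 827 numbers from it. They had mak3 minus WT differences of 0.35 ± 0.32, 0.47 ± 0.50 and 0.37 ± 0.37 (SE, n = 3 against 3). In pair 1-2 AT3G24190 was at -0.02. The probes most like AT1G31790 were AT4G35660 (r = 0.955), AT5G66050 (0.939) and AT3G04210 (0.939). AT4G35660 had the highest difference of all probes, 2.05 ± 0.84 (SE, n = 3 against 3), with -0.18 in pair 1-2 and 3.13 and 3.21 in pairs 3-4 and 5-6. AT5G66050 was at 0.55 ± 0.24, with -0.13, 0.78 and 1.01 by pair. AT3G04210 was at 0.94 ± 0.26, with 0.42, 1.25 and 1.16 by pair, so it was higher in pair 1-2 too.

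The rest of the family lay on both sides of 0. With the members, 21 probes name 1 gene of the pentatricopeptide repeat family. Of these, 14 were higher and 7 lower in mak3, with a median difference of 0.06. Over all probes 46.7% were higher (1607, with 1707 lower and the others without a difference), and the median was 0.00. Of the 692 probes that name 1 gene, 337 were higher and 329 lower. The 18 family probes other than the members were 12 higher and 6 lower, with a median of 0.05. Their range was from -0.53 to 0.31, and 0 passed in limma. In the fit without the block, a limma p below 0.05 before adjustment was found for 0 of these 18, beside 3.93% of all probes. The 2 of the 21 with such a p in that fit were members, chosen by this same difference, so they say nothing about the family. With the block, 462 of all probes had such a p. The SE then fell from 0.21 to 0.16 for AT4G21170 and from 0.15 to 0.07 for AT2G19280. The 0 of 18 is therefore given for the fit without the block only. Both ends of the family's range were members, AT3G13150 at -0.73 and AT1G31790 at 0.35, as their choice implies. The nearest to AT3G13150 was AT4G21170 at -0.53 ± 0.21 (SE, n = 3 against 3), with -0.16, -0.68 and -0.76 by pair. Its samples did not overlap between genotypes, at -0.09, 0.53 and 0.63 in WT and -0.25, -0.15 and -0.12 in mak3. AT2G19280 was at -0.28 ± 0.15, with -0.39, -0.17 and -0.29 by pair, and its samples overlapped.

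AT4G04370, AT1G79080 and AT2G46050 were also lower in all 3 pairs, at -0.20, -0.14 and -0.06. On the other side AT5G39980 was at 0.31 ± 0.53 and AT3G51320 at 0.26 ± 0.38 (SE, n = 3 against 3). AT2G30100 and AT4G14050 were at 0.24 and 0.20. Of the 18 other probes, 5 were lower in all 3 pairs, and 4 were higher in all 3 (AT3G51320, AT2G30100, AT4G14050 and OTP70), beside 20.2% and 16.3% of all probes. The large SE of AT5G39980 came with a span of 1.58 between its WT samples, wider than the 1.13 of CRR21. With the values as deposited the list turned: 8 probes were higher and 13 lower, at a median of -0.14 where that of all probes was -0.19. AT3G13160, the gene next to AT3G13150 in the gene order and of the same family, was not analysed here, and whether its transcript binds the same probe was not tested. Of the other genes within 5 places, AT3G13120 was at 0.22 ± 0.38 and AT3G13180 at -0.04 ± 0.15 (SE, n = 3 against 3).

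**Figure D4:**
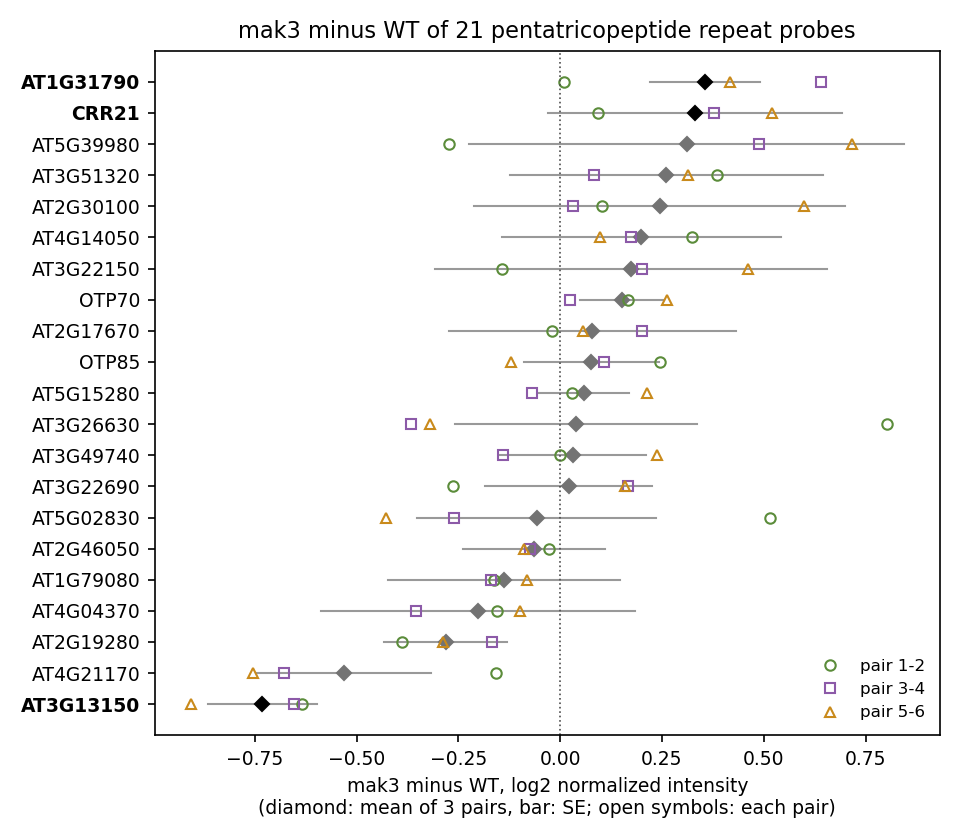
mak3 minus WT difference (log2 normalized intensity) of 21 pentatricopeptide repeat probes in order of their mean, with diamonds for the mean of 3 pairs, bars for the SE and open symbols for each pair. AT3G13150 at -0.73 and AT1G31790 at 0.35 (bold, with CRR21) are the ends of a range in which 14 probes are above 0 and 7 below.

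Genes of the complex that CRR21 serves were on both sides of 0. Beside CRR21, 3 probes name genes of the NADH dehydrogenase-like complex or its assembly. Of these, 1 was higher and 2 lower, with a median of -0.04, beside 46.7% higher over all probes. In limma 0 passed, beside 0.00% of all probes, and 0 had an unadjusted p under 0.05, beside 3.93% of all probes. With CRR21, which was chosen for its value, the median was 0.15. NdhS, the subunit that binds ferredoxin, was at 0.41 ± 0.30 and NdhN, another subunit, at -0.09 ± 0.55 (SE, n = 3 against 3). CRR41, an assembly factor of the complex, was at -0.04 ± 0.27. NdhN fell from pair to pair as CRR21 did, with 0.52, -0.47 and -0.84 in WT and 0.54, -0.77 and -0.84 in mak3. CRR41 fell too, with -0.21, -0.45 and -0.83 in WT and -0.11, -0.58 and -0.92 in mak3. NdhS was nearly level in WT at 2.06, 2.10 and 2.23 and at 3.19, 2.28 and 2.15 in mak3. The fall was not particular to the complex. AT3G22150 of the family list had it, with -0.02, -0.96 and -1.58 in WT and -0.16, -0.76 and -1.12 in mak3. Over all probes, deviations were shared by pair (r = 0.557 to 0.739). The other factors of plastid RNA maturation on the list were OTP85, which edits the same ndhD transcript as CRR21, at 0.08 ± 0.17, and OTP70, a splicing factor, at 0.15 ± 0.10 (SE, n = 3 against 3). Both had a mean above 0, beside 46.7% of all probes, and OTP85 was at -0.12 in pair 5-6. Of these 2 probes 0 passed in limma (0 also had an unadjusted p under 0.05).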

How the data were processed

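Only the deposited value table was used, with 1 linear intensity for each of 3439 probes and 12 arrays. The authors' scanning, background correction and scaling of the deposited intensity are not stated in any source used here. Scale and centring of the values are therefore unknown, and background was not analysed here. Array medians lay between 0.420 and 0.605, and 129 to 142 probes of an array were at 0. Values were quantile-normalized (limma 3.58.1, R 4.3.3), set to at least 0.0412, the 1st percentile of positive values, and put on the log2 scale. On WT array 1 this lower limit held 168 probes, and no member was at it on any array. Array pairs were averaged and mak3 was tested against WT by lmFit and eBayes (two-sided, Benjamini-Hochberg over all probes, threshold 0.05). The procedure was first run on simulated data, only to check that added differences were recovered. Those data had no deviations shared by pair, unlike the arrays, so the run says nothing on false calls here.

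Deviations from the genotype mean correlated between WT and mak3 of an equal pair number (r = 0.602, 0.557 and 0.739), and on this basis the pair numbers were taken to pair samples. The block was an alternative, and it changed no call at the adjusted threshold. Genes were named through the platform annotation and their gene identifiers, which matched for 3 of 3 members. The gene table gives no descriptions, so the family list was written from general knowledge of the family. The members and lists were chosen with earlier results of these data known. The rule for named genes took the members, the family list and, for each member, the 3 probes with the highest Pearson correlation over 6 samples. The planned list of tetratricopeptide genes found 0 probes. Planned protein and promoter results were not made, as no sequence was at hand. The number of arrays limits the precision of every value.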

Additional observations from a re-analysis of the deposited data

How the results depend on the processing

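Over 25 alternatives AT3G13150 stayed below 0, from -0.78 to -0.37, CRR21 above it, from 0.13 to 0.45, and AT1G31790 above it, from 0.15 to 0.55. The ends of these ranges came from leaving out array pair 1-2 for AT3G13150 (-0.78) and CRR21 (0.45), common median scaling for AT3G13150 (-0.37), values as deposited for CRR21 (0.13) and AT1G31790 (0.15), and array weights, a fit that stopped before it converged, for AT1G31790 (0.55). Without array pair 3-4 AT1G31790 was at 0.21. Several alternatives could not move the 3 differences: a higher lower limit, leaving out the dimmest probes, separate arrays and the block. Leaving out a single array kept its nearly repeat reading, so it could move them little. With the pair number as a replicate block the differences were the same (-0.73, 0.33 and 0.35) and 0 probes passed in limma, at adjusted p = 0.355, 0.374 and 0.415 for AT3G13150, CRR21 and AT1G31790. With the 12 arrays each taken as a sample, although arrays of a pair are repeat readings, AT3G13150 at -0.73 passed (limma adjusted p = 0.00904), as 1 of 24 probes. In the other 24 alternatives its adjusted p, at most 1, was never under 0.05, and 0 probes passed. The family median of 0.06 was -0.14 as deposited, where 8 of 21 probes were higher in place of 14. It ranged from 0.0422 to 0.12 without single arrays or pairs, and the highest was without pair 3-4. The cause was not tested. The counts by direction in the family were added after the data were seen. All 3 members remained when the dimmest probes were left out, where 2574 probes were tested.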
